A study of Rattus norvegicus with 8 samples.

Results

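Gp2, Umod, Egf, Guca2b and Klk1 encode proteins and peptides that kidney tubules or glands secrete, and each was measured in rat kidney by 1 probe set, giving 5 genes of the 14217 that could be named from a single symbol. The genes were selected on measured values, namely the differences between the HP and control diets, in which Gp2 and Guca2b were among the largest falls, so their differences between diets are given as descriptions, and where a count of them past a threshold is given it only stands beside the same count over all probe sets. RNA of 8 whole left kidneys was hybridized to Affymetrix rat genome arrays, 4 of the HP diet and 4 of the control diet, with 1 rat per array. All were male Wistar rats, bought at 4 weeks of age, kept for 7 days on the control diet and then fed 1 of the diets for 24 days, with a labelled age of 8 weeks. The HP diet held 1.2% phosphorus, with KH2PO4 in place of part of the corn starch, which adds potassium too, and the control diet held 0.3% phosphorus. The study kept 5 rats per diet and its authors chose the 4 that went on arrays as average animals of their group. Because this is whole kidney, fewer cells of a type and less RNA per cell cannot be told apart, and the segment that a transcript came from was not measured.

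Uromodulin, the product of Umod, is a zona pellucida domain protein that thick ascending limb cells anchor in their membrane, cleave and release into urine, where it forms filaments. Gp2 encodes its close relative, best known as the main membrane glycoprotein of pancreatic zymogen granules. The precursor of epidermal growth factor (Egf) is made in the thick ascending limb and distal convoluted tubule, Guca2b encodes the precursor of uroguanylin, a peptide that raises cGMP and promotes sodium excretion, and Klk1 encodes tissue kallikrein, a connecting tubule protease that frees kinins from kininogen.

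The promoters of Gp2, Umod and Guca2b are shown because Gp2 and Umod stand next to each other on chromosome 1, on the same strand. Gp2 passed the threshold of the diet comparison below and Umod did not, and Guca2b is the other gene that passed it. Each is the RefSeq stretch of 300 bases (250 before to 50 after the annotated start, 5′ to 3′ on the gene's strand) in the GRCr8 assembly. The Gp2 stretch lies at chr1:183243905-183244204 on the minus strand, that of Umod at chr1:183260967-183261266 on the minus strand and that of Guca2b at chr5:138534161-138534460 on the minus strand. Capitals mark TATAAA, or in Guca2b the HNF1 motif letters GTTAAT.
Gp2: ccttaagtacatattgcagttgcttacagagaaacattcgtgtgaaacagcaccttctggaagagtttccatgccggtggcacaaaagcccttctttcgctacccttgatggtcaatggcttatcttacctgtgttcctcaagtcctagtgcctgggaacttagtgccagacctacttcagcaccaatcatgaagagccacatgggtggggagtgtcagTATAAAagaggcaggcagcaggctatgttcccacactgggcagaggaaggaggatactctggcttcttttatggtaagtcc
Umod: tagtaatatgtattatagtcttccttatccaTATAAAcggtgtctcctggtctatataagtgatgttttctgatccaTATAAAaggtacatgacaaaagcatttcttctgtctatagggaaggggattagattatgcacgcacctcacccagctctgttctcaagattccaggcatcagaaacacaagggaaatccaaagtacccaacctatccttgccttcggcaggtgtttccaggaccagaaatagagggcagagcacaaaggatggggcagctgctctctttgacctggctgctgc
Guca2b: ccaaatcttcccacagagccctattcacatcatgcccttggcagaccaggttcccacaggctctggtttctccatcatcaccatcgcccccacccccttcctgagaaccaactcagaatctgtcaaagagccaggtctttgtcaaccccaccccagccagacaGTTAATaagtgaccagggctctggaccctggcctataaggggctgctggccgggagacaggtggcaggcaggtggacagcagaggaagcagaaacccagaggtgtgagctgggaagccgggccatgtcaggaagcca
TATAAA, a motif chosen after the sequences had been seen, began 31 bases before the annotated start of Gp2 and 219 and 173 bases before that of Umod, and 14.2% of 33469 promoters held it on either strand. GTTAAT began 87 bases before the start of Guca2b and was found in 7.45% of promoters. AAGGTCA, letters that nuclear receptors can bind, was found among the 5 genes only in Klk1, on the opposite strand, and in 4.61% of all promoters. The longer palindromic HNF1 motif, held by 0.0448% of promoters, was in none of the 5 stretches, and Egf held none of the motifs searched. These matches describe letters and not binding.

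Values are logarithms whose base is not stated (read here as log2), and the method that made them shrinks differences strongly. Differences are therefore given in millionths (1e-06) of a log unit, as the HP diet minus the control diet, and also as a standardized difference, which divides them by the pooled SD within diets. They are not fold changes, and the size in millionths cannot be set against that of another probe set. Over the 31042 probe sets tested, the median SD within diets was 2.22 millionths and the median standardized difference was -0.21.

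Gp2 was lower on every HP array than on every control array. Relative to the control mean, it stood at -1598, -2063, -2131 and -1224 millionths on the HP arrays, against -115, 513, 76.0 and -475 millionths on the control arrays. The lowest control array and the highest HP array were 749 millionths apart, within a range of 2644 millionths over all 8 arrays. The difference was -1754 millionths (SE 296, n = 4 each), or -4.19 SD, around mean values of 8.549 on the HP diet and 8.551 on the control diet, and the diets accounted for 85.4% of the sum of squares. Gp2 varied within diets more than 99.5% of probe sets did.

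Guca2b, the uroguanylin precursor, was also lower on every HP array. Its values were -511, -721, -279 and -457 millionths on the HP arrays, against 28.4, 114, -54.8 and -87.1 millionths on the control arrays, with 192 millionths between the nearest arrays of the diets. The difference was -492 millionths (SE 101, n = 4 each), or -3.43 SD. The HP arrays were spread more widely than the control arrays, with SDs of 182 and 89.9 millionths. Among 272 probe sets that had 1 gene, passed the threshold as lower and had no overlap between diets, Gp2 came first and Guca2b 5th by the difference in millionths. The values next to Guca2b in that order were those of Nat8 at -660 millionths, inside, and of Mapk4 at -353 millionths, outside. This order restates the selection across probe sets whose sizes are not comparable, and nothing is read from it.

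Egf was lower on every HP array by a narrow margin. Its HP arrays stood at -17.0, -42.0, -13.1 and -24.1 millionths and its control arrays at -5.56, 5.53, -7.53 and 7.55 millionths, so that 5.56 millionths separated the nearest of them. The difference of -24.1 millionths (SE 7.46, n = 4 each), or -2.28 SD, did not pass the threshold used for Gp2 and Guca2b.

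Klk1 overlapped between the diets. The HP arrays were at -13.7, -46.3, 12.7 and -16.0 millionths and the control arrays at 4.56, 11.6, -34.0 and 17.9 millionths. HP replicate 3 stood above 3 of the control arrays, and control replicate 3 stood below 3 of the HP arrays. The difference of -15.8 millionths (SE 16.8, n = 4 each) was -0.67 SD, smaller than its SE.

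Umod showed the least difference of the 5 genes. It was at -0.523, 0.268, 0.0975 and 0.0175 millionths on the HP arrays and at -0.493, 0.108, 0.168 and 0.218 millionths on the control arrays. Replicate 1 was the low array in each diet, and the other 6 arrays lay within a narrow band. The difference was -0.035 millionths (SE 0.238, n = 4 each), or -0.10 SD. Umod had a mean of 13.524, above that of 99.9% of probe sets, and an SD within diets above that of only 6.31%. Whether a probe set this near the top of the scale could register a change was not tested. Egf and Klk1 had means above those of 99.5% and 98.4% of probe sets, while Gp2 and Guca2b had means above those of 80.6% and 66.0% of them.

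**Figure D1:**
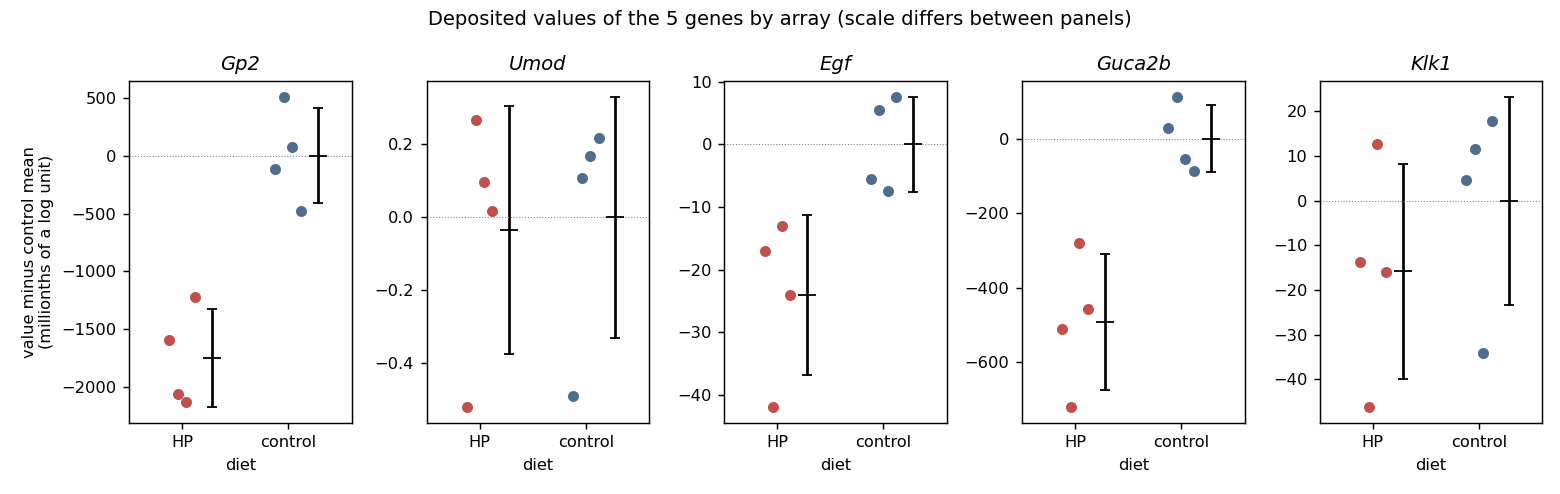
Value minus control mean in millionths of a log unit (vertical axis, a different scale in each panel) for the 5 genes, with 1 point per array, the HP diet left of the control diet, and the mean with its SD (n = 4) beside the points. Gp2, Guca2b and Egf have every HP point below every control point, while Klk1 and Umod overlap.

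Counted together, 5 of 5 genes had a negative difference, where the median standardized difference of all probe sets was also negative, at -0.21 SD. The sign of Umod changed when some single arrays were left out. Of the 5 genes, 3 had every HP array below every control array, where 5.81% of all probe sets did and 7.09% had every HP array above. By limma, at a Benjamini-Hochberg adjusted p below 0.05, 2 of 5 were lower, where 1.13% of all probe sets were lower and 2.95% were higher. Rank products, the study's method, also placed 2 of 5 as lower, where 2.3% of all probe sets were lower and 3.4% higher. Since these diet differences chose the genes, nothing is read from the counts. Across all probe sets limma placed 915 higher and 350 lower, a split that turned to 339 higher and 5043 lower after quantile normalization.

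The calls of both genes were lost in most fits that left out 1 array, 6 of 8 for Gp2 and 7 of 8 for Guca2b. All lower calls numbered 79 to 219 in these fits, against 350 with every array. Gp2 was past the threshold only without HP replicate 4 or without control replicate 4 when 1 array was left out, and Guca2b only without HP replicate 3. The standardized difference stayed between -5.25 and -3.79 SD for Gp2 and between -5.00 and -3.08 SD for Guca2b in these fits.

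Deviations of the arrays from their own diet mean are free of the difference that chose the genes, and they were compared in all 10 pairs by an exact permutation of arrays within diets (two-sided, 576 arrangements). Egf and Klk1 ranked the arrays in the same order in both diets, namely replicates 3, 1, 4 and 2 on the HP diet and 4, 2, 1 and 3 on the control diet, from high to low. Pearson's r of their deviations was 0.87 over 8 arrays, with p = 0.0017 in the exact permutation test, the smallest it allows, and 0.017 after Benjamini-Hochberg adjustment over the 10 pairs. Spearman's rho was 0.86, with an exact permutation p = 0.019 and an adjusted p of 0.19, so the rank measure did not pass. Within the HP diet r was 0.94 and within the control diet 0.80, over 4 arrays each. Without HP replicate 2 and control replicate 3, the arrays farthest from the median of Egf, r was 0.69. After quantile normalization neither gene had any spread within diets, so the correlation could not be computed there and rests on the values as deposited. The correlation of Egf with Klk1 was above that of Egf with 99.7% of the 20826 probe sets that had 1 symbol.

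The correlations of Guca2b with these genes did not pass. With Klk1 it had r = 0.72 (exact permutation p = 0.066, adjusted p = 0.33), which was 0.99 over the HP arrays and 0.28 over the control arrays. With Egf it also had r = 0.72 (exact permutation p = 0.11, adjusted p = 0.38), which was 0.90 over the HP arrays and 0.11 over the control arrays. Both fell to 0.26 without the 2 arrays farthest from the median, HP replicate 2 among them, and whether the diets differed in these correlations was not tested. Gp2 had r of -0.20 with Umod, 0.07 with Egf, 0.27 with Guca2b and -0.11 with Klk1, with adjusted p of 0.89 to 0.90 in the exact permutation tests. Umod had r of -0.17 with Egf, -0.21 with Guca2b and -0.19 with Klk1, with an adjusted p of 0.89 in each. The arrays that were lowest for Egf and Klk1 had the highest median over all probe sets within their diet: HP replicate 2 lay 185 millionths above the lowest array and control replicate 3 lay 105 millionths above it. HP replicate 3, highest for both genes, lay 107 millionths above it, and the part of these shifts in the correlation was not tested.

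**Figure D2:**
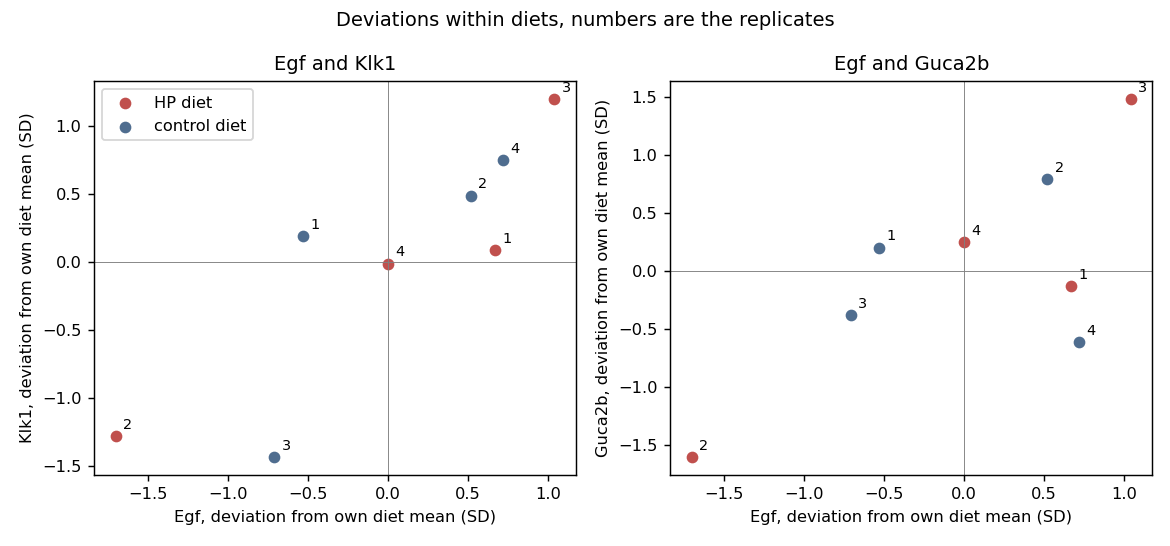
Deviation of each array from its own diet mean, in SDs within diets, for Klk1 against Egf (left) and Guca2b against Egf (right), with 1 point per array, coloured by diet and numbered by replicate. Klk1 and Egf run together in both diets, with HP replicate 2 the lowest HP array and control replicate 3 the lowest control array for both, while the Guca2b points of the control diet show no such run (r = 0.11).

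On the chromosomes, the count of neighbours past the threshold lay near that of all genes, and nothing is read from it. Of 32 other measured genes next to them in the RefSeq order, limma placed 0 lower and 1 higher, where 1.23% of 14217 genes were lower and 4.58% higher with 1 probe set per gene. Gp2 and Umod were direct neighbours, and of the 8 measured genes around them Vps35l alone had a positive difference, at 2.13 SD (adjusted p = 0.71). The 3 medium-chain acyl-CoA synthetase genes on the side of Umod, Acsm5, Acsm2 and Acsm1, had -1.78, -1.40 and -1.40 SD (adjusted p = 0.23, 0.33 and 0.32). The 1 neighbour that rose was Cfi, which encodes complement factor I and lies 4 genes from Egf, at 650 millionths (SE 86.1) or 5.34 SD (adjusted p = 0.013, at most 0.045 without any 1 array and 0.98 after median centring).

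Guca2a, the gene of the related peptide guanylin, lies directly beside Guca2b on chromosome 5, and its values ran the other way. It stood at 189, 204, 73.7 and 153 millionths on the HP arrays, against 22.5, -7.33, -53.4 and 38.3 millionths on the control arrays. Every HP array was above every control array, but the difference of 155 millionths (SE 35.4, n = 4 each), or 3.09 SD, missed the threshold by limma (adjusted p = 0.057). It was -0.71 SD after quantile normalization (adjusted p = 0.43).

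The tissue kallikrein relatives near Klk1, picked after their symbols had been seen on the platform, belong to 1 gene family, and their sequence identity was not computed. A probe set may bind more than its own transcript, which was not tested. None of these relatives passed the threshold. Klk1c4 stood at -2741, -5222, -3327 and -3355 millionths on the HP arrays, against 761, -1192, -2902 and 3332 millionths on the control arrays. Control replicate 3 stood below HP replicate 1, and the difference of -3661 millionths (SE 1444, n = 4 each) was -1.79 SD (adjusted p = 0.21). After median centring it did pass, with an adjusted p of 6.6e-08 by limma. The same centred fit gave Gp2 an adjusted p of 0.45 at -4.10 SD. Its p went with the size in millionths and not with the spread within diets, so nothing is read from the Klk1c4 call. Klk1b3 differed by -56.5 millionths (SE 36.9), or -1.08 SD (adjusted p = 0.45), and Klk1c2, Klk1c3, Klk1c8, Klk1c9 and Klk1c10 had adjusted p between 0.58 and 1.

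**Figure D3:**
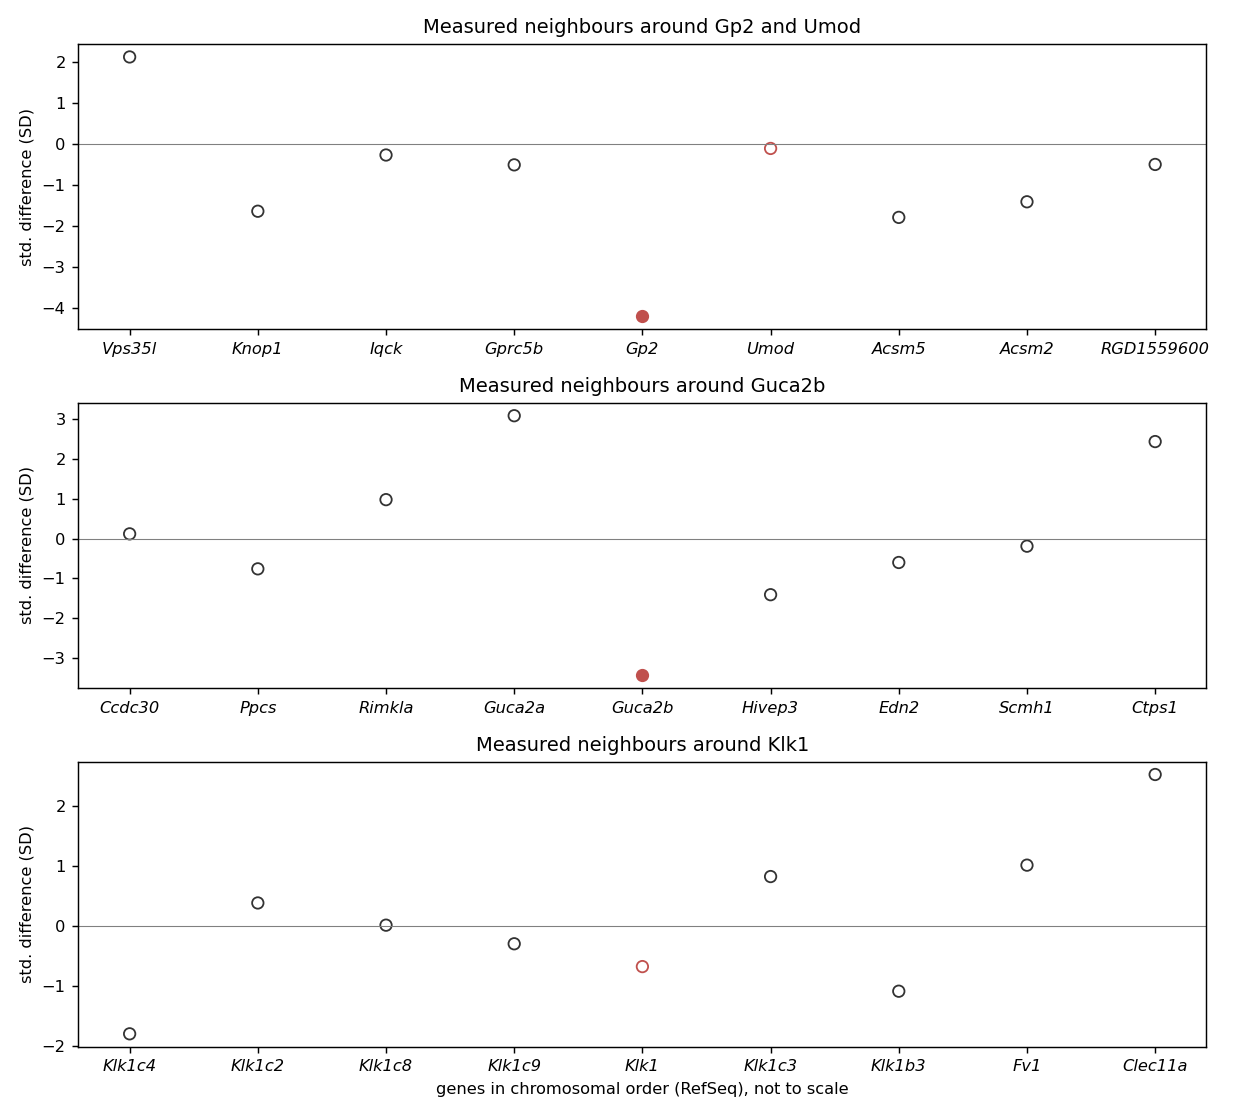
Standardized difference, HP diet minus control diet, in SDs within diets (vertical axis) for the measured genes on either side of Gp2, Guca2b and Klk1 in chromosomal order, not to scale. Red marks Gp2, Umod, Guca2b and Klk1, and filled points passed the limma threshold, which in these panels only Gp2 and Guca2b did. Egf and its neighbours are not shown, among them Cfi, which did pass.

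Other genes of the segments and pathways in which these proteins are made or act were taken from 10 lists. Of 145 probe sets measured for them, limma placed 5 higher (3.45%) and 2 lower (1.38%), near the 4.58% and 1.23% of all genes, so the counts are no result about these lists. The medians below are of the standardized difference, to be set beside -0.21 SD for all probe sets.

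The thick ascending limb, where Umod and Egf are made, had 1 of 16 measured genes lower and none higher, with a median of -0.96 SD. Every HP array was below every control array for 5 of the 16, where this held for 5.81% of all probe sets. The list was written with earlier results of these data known, so nothing is read from that count. The gene that fell was Casr, the calcium-sensing receptor, at -118, -95.1, -80.5 and -93.9 millionths on the HP arrays, against 14.9, 36.2, -30.5 and -20.7 millionths on the control arrays. Its difference was -96.9 millionths (SE 17.4), or -3.94 SD (adjusted p = 0.029). Slc12a1, the NKCC2 sodium-potassium-chloride cotransporter that defines the segment, added for its role after its values had been seen, was at 7.32, -0.898, 1.18 and -0.178 millionths on the HP arrays, against -1.18, 0.813, -5.99 and 6.35 millionths on the control arrays. The diets overlapped, and the difference was 1.86 millionths (SE 3.17), or 0.41 SD (adjusted p = 0.81). Cldn10, a claudin of paracellular sodium transport, Ppp1r1a, a protein phosphatase inhibitor, and Tmem72 had -2.65, -2.24 and -2.16 SD (adjusted p = 0.096, 0.13 and 0.14).

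None of 19 distal convoluted tubule genes passed, with a median of -0.39 SD. Slc12a3, the thiazide-sensitive sodium-chloride cotransporter, had every HP array below every control array and differed by -15.6 millionths (SE 4.05), or -2.72 SD (adjusted p = 0.082). Stk39, a kinase that activates it, was at -2.23 SD (adjusted p = 0.14), Emx1 at -1.91 SD (adjusted p = 0.19) and Kl, which encodes the FGF23 co-receptor klotho, at -1.77 SD (adjusted p = 0.22). Of 16 genes of the connecting tubule and principal cells, 1 was higher, with a median of 0.41 SD. It was Scnn1b, the beta subunit of the epithelial sodium channel, at 4.68 millionths (SE 0.939) or 3.53 SD (adjusted p = 0.044), a value that turned to -0.86 SD after median centring and to -1.22 SD after quantile normalization. Ptges, a prostaglandin E synthase, Prss8, the channel-activating protease prostasin, and Avpr2, the vasopressin receptor, had 2.13, -2.21 and -1.83 SD (adjusted p = 0.15, 0.14 and 0.20), and Aqp2, the vasopressin-regulated water channel added for its role, had 0.32 SD (adjusted p = 0.86). None of 13 intercalated cell genes passed, with a median of -0.88 SD. Slc26a4, the chloride-bicarbonate exchanger pendrin, was at -54.4 millionths (SE 12.9) or -2.99 SD (adjusted p = 0.063), and the proton pump subunits Atp6v1c2, Atp6v1g3 and Atp6v1b1 were at -2.63, -2.37 and -2.22 SD (adjusted p = 0.089, 0.12 and 0.14).

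In the guanylin, cGMP and natriuretic peptide list, to which Guca2b belongs, 1 of 15 genes rose and 1 fell, with a median of -0.26 SD. Slc9a3, the apical sodium-hydrogen exchanger NHE3 of the proximal tubule and thick ascending limb, was at -125, -82.9, -57.8 and -105 millionths on the HP arrays, against -12.4, -10.0, 2.45 and 20.0 millionths on the control arrays. The diets did not overlap and the difference was -92.5 millionths (SE 16.2), or -4.04 SD (adjusted p = 0.027). Npr2, a guanylyl cyclase receptor for C-type natriuretic peptide, rose by 6.93 millionths (SE 1.42), or 3.46 SD (adjusted p = 0.044), but was at -0.83 SD after median centring and at -4.11 SD after quantile normalization (adjusted p = 0.0039). Gucy1a1, a subunit of soluble guanylyl cyclase, was at 2.46 SD (adjusted p = 0.10), and Gucy2c, the receptor through which uroguanylin acts in the gut and added for that role, was at -0.99 SD (adjusted p = 0.51).

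Of 15 kallikrein-kinin probe sets, 1 of them shared by Kng1 and Kng2, 2 rose, with a median of -0.05 SD. Serping1, which encodes the C1 inhibitor that restrains plasma kallikrein, rose by 1146 millionths (SE 183), or 4.42 SD (adjusted p = 0.022). Prcp, a carboxypeptidase that degrades angiotensin and can activate prekallikrein, rose by 26.3 millionths (SE 4.88), or 3.81 SD (adjusted p = 0.033), and turned to -0.51 SD after median centring and -0.64 SD after quantile normalization. Cpn1, a kininase, was at -2.01 SD (adjusted p = 0.17), Klk6, a kallikrein-related peptidase, at -1.96 SD (adjusted p = 0.18), and Bdkrb2, the kinin B2 receptor added for its role, at -0.92 SD (adjusted p = 0.58). None of 20 genes of the EGF receptor family, its ligands and sheddases passed, with a median of 0.32 SD. Rhbdf2, an inactive rhomboid needed for ligand shedding, Spry2, an inhibitor of receptor signalling, Erbb2, a receptor of the family, and Lrig1, which restrains the receptors, were at 2.62, 2.38, 1.72 and -1.55 SD (adjusted p = 0.091, 0.11, 0.23 and 0.28). Egfr, the receptor of EGF itself and added for that role, was at 1.36 SD (adjusted p = 0.34).

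Among 7 other zona pellucida domain proteins 1 rose, with a median of -0.43 SD. Dmbt1, a secreted scavenger receptor of epithelia, rose by 569 millionths (SE 122), or 3.30 SD (adjusted p = 0.047), while Eng, the TGF-beta co-receptor endoglin, was at 2.12 SD (adjusted p = 0.16), Cuzd1 at -0.77 SD (adjusted p = 0.63) and Zp1, an egg coat protein, at -0.67 SD (adjusted p = 0.67). None of 13 genes of cleavage and GPI attachment passed, with a median of -0.05 SD, and Hpn, the protease hepsin that cleaves uromodulin, was at -2.57 millionths (SE 1.11) or -1.64 SD (adjusted p = 0.26). In the same list St14, the protease matriptase, was at 2.25 SD (adjusted p = 0.13) and Pgap2, which remodels GPI anchors, at 3.42 SD (adjusted p = 0.29). None of 17 transcription factors of the distal nephron passed, with a median of -0.70 SD, and Tfap2a, Irx3, Esrrb and Sim1 were at -2.21, 1.74, -1.30 and -1.28 SD (adjusted p = 0.22, 0.23, 0.36 and 0.37).

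**Figure D4:**
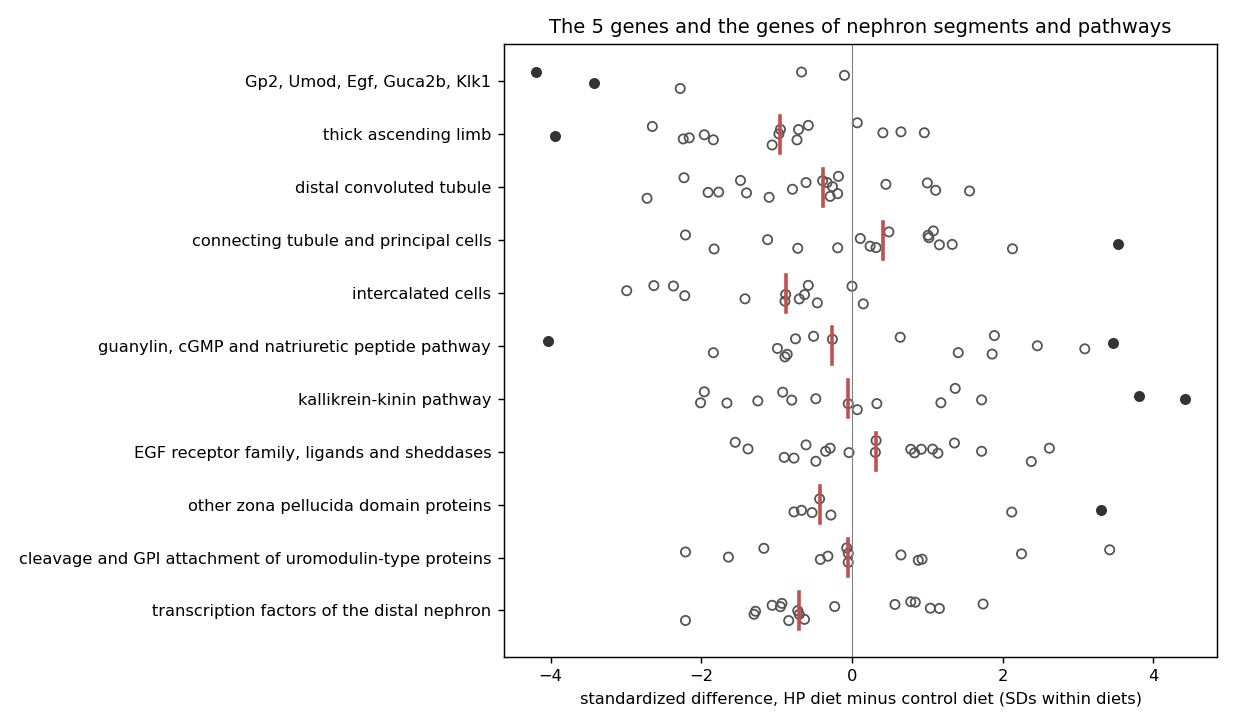
Standardized difference, HP diet minus control diet, in SDs within diets (horizontal axis) for the 5 chosen genes (top row) and the measured genes of 10 lists, with 1 point per gene, filled where it passed the limma threshold, and a red bar at each list's median. Gp2 is at -4.19 and Guca2b at -3.43 SD, and the list medians run between -0.96 and 0.41 SD.

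The calls of these 7 genes were each lost in most fits that left out 1 array. Casr kept its call only without control replicate 3, Slc9a3 only without HP replicate 3, Scnn1b and Npr2 only without control replicate 2, Prcp only without HP replicate 3 or control replicate 1, and Serping1 only without HP replicate 2, 3 or 4, while Dmbt1 kept it in no such fit. The highest adjusted p by limma was 0.078 for Casr, 0.083 for Slc9a3, 0.11 for Scnn1b and Npr2, 0.094 for Prcp, 0.068 for Serping1 and 0.12 for Dmbt1. None of the 7 was called after median centring (adjusted p = 0.98 for each). After quantile normalization Serping1, Scnn1b and Prcp were not called (adjusted p = 0.10, 0.21 and 0.46 by limma), and Npr2 was called in the other direction. Casr, Slc9a3 and Dmbt1 kept their calls there (adjusted p = 0.00038, 0.0047 and 0.02 by limma). That fit placed 5043 of the 15784 probe sets it could test as lower and 339 as higher. Nothing is therefore read from the lower calls of Casr, Slc9a3 and Npr2 in it.

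Markers of other cell types moved with the diet. Macrophage markers were higher for 12 of 16 genes, injured tubule markers for 10 of 14 and fibroblast markers for 7 of 12, and none of these was lower. Of all genes, with 1 probe set per gene, 4.58% were higher and 1.23% lower. Of these marker calls, 5 of 12, 7 of 10 and 2 of 7 were also made after median centring, and 4, 5 and 6 held whichever array was left out. Centred calls went with the size in millionths, so they are no check on the spread within diets. After quantile normalization 12, 8 and 4 of the calls were made, which were all that could be tested there. The mean macrophage level was 2.83 to 5.26 SD above the control mean on the HP arrays, against -0.50 to 0.56 SD on the control arrays. That of the injured tubule list was 4.00 to 5.98 SD on the HP arrays, against -0.35 to 0.33 SD on the control arrays, with Havcr1, the injury marker KIM-1, at 7.41 SD (adjusted p = 0.0060). That of the fibroblast list was 3.79 to 4.24 SD on the HP arrays, against -0.54 to 0.68 SD on the control arrays. Proximal tubule markers were lower for 1 of 15, Slc27a2, a fatty acid transporter, at -3.55 SD (adjusted p = 0.039, and up to 0.097 with the call lost whichever array was left out), and their mean was at -2.53 to -0.86 SD on the HP arrays, against -0.26 to 0.47 SD on the control arrays.

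HP replicate 2 had the highest macrophage, injured tubule and fibroblast means and the lowest proximal tubule mean, and it was also the lowest HP array for Egf, Guca2b and Klk1. It was not so for Gp2, whose lowest HP array was replicate 3, nor for Umod, for which HP replicate 2 was the highest HP array and replicate 1 the lowest. Markers of pancreatic acinar cells, where Gp2 is abundant, had 0 of 12 past the threshold, with means of -0.61 to -0.02 SD on the HP arrays, against -0.22 to 0.26 SD on the control arrays. Endothelium and podocyte markers had 0 of 10 and 0 of 7 past it, and the salivary gland markers, measured by 7 probe sets, had 0. The part of macrophages, injured tubules, fibroblasts and the proximal tubule in the values of the 5 genes was not tested.

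**Figure D5:**
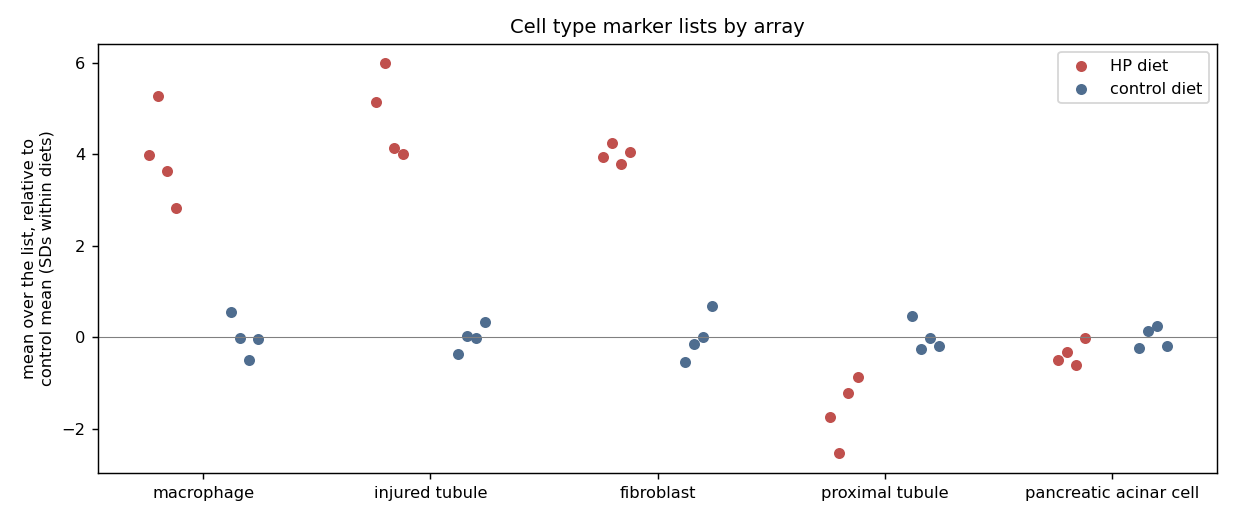
Mean over each cell type's marker genes relative to the control mean, in SDs within diets (vertical axis), with 1 point per array and the HP diet left of the control diet. The HP arrays stand above the control arrays for macrophage, injured tubule and fibroblast markers and below them for proximal tubule markers, and they overlap for pancreatic acinar markers.

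Patterns most like those of the 5 genes are given as Pearson's r with no test. Over all 8 arrays, where the diet difference enters r, Gp2 was most like Chmp4c (0.981), Sult5a1 (0.973) and Miga2 (0.972), and Guca2b was most like Slc5a11 (0.988), Slc47a1 (0.986) and Eaf2 (0.983). Egf was most like Atg12 (0.978), Aif1l (0.968) and Chuk (0.960), Klk1 most like Syf2 (0.974), LOC102553190 (0.925) and Tbccd1 (0.924), and Umod most like Igf2bp1 (0.968), Brme1 (0.954) and Slc2a1 (0.954). Over the 8 deviations from diet means, Gp2 went with Snrpa1 (0.984), Plekhh2 (0.975) and Ccdc177 (0.974), and Guca2b with Fsd1l (0.988), Tle6 (0.987) and Canx (0.974). Egf went with Ncam1 (0.976), Kcnmb4 (0.969) and Smarcc2 (0.967), and Umod with Zfp61 (0.989), Duoxa1 (0.988) and Cab39 (0.979). Klk1 went with Shox2 (0.986), Calb1 (0.971) and Syf2 (0.971), so that Syf2 was on both of its lists. Calb1 encodes calbindin-D28k, a calcium-binding protein of the distal convoluted and connecting tubules, and its own difference between the diets was 22.4 millionths (SE 15.8), or 1.00 SD (adjusted p = 0.49). The points of each r share arrays, and these genes were picked for the highest values of r.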

How the data were processed

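Whole kidney RNA was hybridized to 8 Affymetrix arrays, 1 per rat, and the authors deposited 1 logarithm per probe set and array, read here as log2 and made with the distribution free weighted method (DFW) over all arrays together. DFW weights each probe set by its variability, which leaves most differences in the millionths of a log unit, and a difference is no fold change. The log base was not given in the sources used here. Scanner brightness was not used here, so depth is unknown and the number of arrays limits the precision. The values were used as deposited.

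Of 31099 probe sets, 57 Affymetrix controls were left out. The other 31042 were fitted with limma 3.58.1 in R 4.3.3 with diet as the only term and variances moderated by eBayes (0.772 prior degrees of freedom), and p-values were adjusted over all of them (Benjamini-Hochberg, threshold 0.05). An adjusted p of a gene is from this fit, unless an alternative or a left-out array is named with it. SEs come from the pooled SD within diets. Rank products used 16 pairs of arrays, 1000 permutations and an FDR under 0.05. On simulated data with the SDs of the HP and control arrays (31042 probe sets), limma recovered 0 of 200 shifts of 4 SD with 0 false calls and 187 of 200 shifts of 8 SD with 14 false calls. Only 200 probe sets were shifted, where the data gave 915 higher and 350 lower calls. The adjusted p depends on how many probe sets differ, so these rates need not hold for the data.

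The platform annotation gave 1 symbol to 20826 probe sets, several to 436 and none to 9780. Each gene entered its list with the probe set of highest mean. Named genes are the 5 chosen genes, up to 4 genes of smallest p in each list, the measured neighbours, the 3 most similar genes and defining markers, and genes added later are marked. The 5 genes, the 18 lists and the tests were chosen with earlier results of these data known. The alternatives were trend and robust moderation, no moderation, array weights, quantile normalization, median centring, removal of the lowest 25%, the replicate number as a block, rank products, all probe sets of a gene and leaving out each array. Gene order and promoters are those of RefSeq for GRCr8 (5 of 5 promoters matched). Tables were computed with scipy 1.17.1, pandas 2.3.3 and numpy 2.4.6 in Python 3.11.15, and figures drawn with matplotlib 3.10.9.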

Additional observations from a re-analysis of the deposited data

Results flagged for a closer look

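Umod on control replicate 1 stood apart from the other 3 control arrays. It lay at -0.493 millionths of a log unit relative to the control mean, against 0.108, 0.168 and 0.218 millionths on the others, and its gap to the nearest was 0.845 of the group's range, above the limit of 0.829 for 4 arrays. Of 10 groups tested (5 genes, 2 diets) it was the only one past the limit. Chance puts about 1 in 20 single groups past it, so 1 among 10 groups is not set apart from chance.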

How the results depend on the processing

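All probe sets gave 915 higher and 350 lower calls, the 5 chosen genes 2 lower, and the segment and pathway genes 5 higher and 2 lower. In the same order these counts were 78, 19, 0, 0 and 0 after median centring, 522, 171, 1, 1 and 0 without moderation, 339, 5043, 2, 1 and 26 after quantile normalization and 254, 115, 0, 2 and 0 with the replicate number as a block. Rank products gave 1056 higher and 715 lower. Leaving out 1 array gave 339 to 672 higher and 79 to 219 lower in all, 0 to 1 lower of the 5, and 0 to 3 higher and 0 to 1 lower in the lists. Array weights, trend and robust moderation, removal of the lowest 25% and all probe sets of a gene kept each count within 1.5 times. Gp2 was at -2.76 SD after quantile normalization, its smallest value, and still called, in a fit that placed 5043 probe sets lower. It was at -4.10 SD after median centring and -3.07 SD with the block, and Guca2b at -3.08 and -2.65 SD, none of them past the threshold, as was Guca2b at -3.43 SD without moderation. Umod alone changed sign, to 0.47 SD without HP replicate 1 and to 0.00, 0.06 and 0.11 SD without control replicates 2, 3 and 4 (range without 1 array -0.75 to 0.47 SD). Without 1 array Egf ranged from -2.75 to -1.98 SD and Klk1 from -1.42 to -0.27 SD. Egf was at -1.17 SD after median centring and -1.77 SD with the block, and Klk1 at -0.93 and -0.50 SD. Quantile normalization left 15258 probe sets with no spread within diets (tolerance 1e-12 log units), 11139 of them with 1 value on all 8 arrays, Umod, Egf and Klk1 included, so these could not be tested and 15784 were. The medians of the arrays ranged over 185 millionths, wider than the SD within diets of most probe sets, and centring adds this range to every probe set. After centring, the adjusted p by limma went with the size in millionths and not with the standardized difference. The marker gene Clu had 5e-265 at 4.56 SD, and the marker gene Dcn had 0.92 at 7.50 SD. Their differences before centring were 20290 and 1737 millionths. A call made or lost after centring therefore mostly restates that size. Same-numbered arrays had correlations of scaled deviations of 0.12, 0.089, 0.063 and 0.0015, not all over 0.1, so the numbers were not taken as pairs.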
